A study of Homo sapiens with 6 samples.

Results

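Glutathione transferases join the tripeptide glutathione to reactive electrophiles, which makes these compounds more soluble and marks them for export from the cell. The soluble enzymes fall into classes named by Greek letters, the kappa class lies in mitochondria and peroxisomes, and a separate family of small membrane proteins forms the microsomal enzymes. Several of these genes are known targets of NRF2, the transcription factor of the antioxidant response, and fumarates are among the electrophiles that activate it. The 10 genes described here were listed by name: GSTP1 (pi class), GSTM2, GSTM3 and GSTM4 (mu), GSTA4 (alpha), GSTO1 (omega), GSTZ1 (zeta), GSTK1 (kappa), and MGST1 and MGST3 (microsomal). All 10 were found by symbol among the 60709 genes with values. The list is by name, but it was chosen with earlier results of these data known.

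The study sequenced messenger RNA of SH-SY5Y, an established human neuroblastoma line. The control group was 3 wells that received 10 uL of DMSO in 2 mL of medium and were lysed 5 h later. The other group was 3 wells that received Nrf2-peptide-linked fumarate in water together with the same DMSO, also for 5 h. In the labels the controls are numbered 4, 5 and 6 and the peptide samples 13, 14 and 15, while the columns of the count table are numbered 1 to 6. By number, columns 4, 5 and 6 belong to control replicates 1, 2 and 3. Columns 1 to 3 match no label and were set aside, and the peptide samples were not analysed here. The match rests on those numbers alone: had the table been numbered afresh, the libraries called controls below could be treated ones. No difference between treated and control cells is reported. The labels do not say whether the wells were separate cultures, so the spread between libraries may be technical.

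The 3 libraries held 8887854 to 11397407 counts. A count of 0 in a library allows up to 3 counts, which is 0.263 to 0.338 counts per 1000000 (CPM). This limit covers counting error only. A gene is called detected below where each of the 3 libraries holds 10 counts or more. Of 10 noradrenergic neuroblastoma markers, 9 were detected, with summed levels of 2973 to 3384 CPM, while TH, tyrosine hydroxylase, had 0 counts in all 3. Of 8 mesenchymal neuroblastoma markers, 7 were detected, with sums of 516 to 592 CPM, and PRRX1, a defining factor of that state, was at 0. Hepatocyte markers, from a cell type rich in alpha class transferases, summed to 0.263 to 0.935 CPM over 4 genes. Leukocyte markers summed to 0.468 to 1.05 CPM over 3 genes.

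The promoters of 3 members carry the core letters of the antioxidant response element, the sequence NRF2 binds with its small MAF partners. They are shown because the labels name the peptide treatment after this factor. The RefSeq windows (GRCh38.p14) run from 250 bases before to 50 bases after each annotated start, and 12 windows matched the 10 members, 3 of them for MGST1. The motif searched was TGACNNNGC, on both strands. It was present in 4 of the 12 windows, against 13.3% of all 35116 windows. Capitals mark the match, each on the strand of its gene.
GSTP1, chr11:67583731-67583769, plus strand: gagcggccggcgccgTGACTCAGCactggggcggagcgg
GSTO1, chr10:104254651-104254689, plus strand: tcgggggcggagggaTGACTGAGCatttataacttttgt
GSTO1, chr10:104254716-104254754, plus strand: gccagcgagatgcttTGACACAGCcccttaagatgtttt
GSTA4, chr6:52995285-52995308, minus strand: cccagccgggaccgcTGACCTGGC

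The GSTP1 match began 66 bases before the start and is also an exact TGACTCA, the letters of an AP-1 site, which overlaps it. TGACTCA was found in 4.95% of all windows and in no other window of the members. The GSTO1 matches began 226 and 161 bases before the start, and the GSTA4 match 9 bases before. The fourth window was 1 of the 3 for MGST1, where the match lay after the start. These are descriptions of letters, and binding was not measured. GSTP1 is the member whose promoter is best known, and its 250 bases before the start (chr11:67583562-67583811, plus strand) are given for that reason, again with the match in capitals.
GSTP1: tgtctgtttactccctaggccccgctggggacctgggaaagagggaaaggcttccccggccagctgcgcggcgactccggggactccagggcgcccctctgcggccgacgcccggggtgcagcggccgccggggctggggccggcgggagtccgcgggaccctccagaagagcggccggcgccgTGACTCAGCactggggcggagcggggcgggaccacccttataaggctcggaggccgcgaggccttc
The full window of GSTP1 held 36 CG pairs and had 74.0% GC. The median window of all genes held 14 CG pairs and had 58.7% GC. The window of GSTZ1 was close to that of GSTP1, with 33 CG pairs and 74.3% GC. GSTM3 had the fewest CG pairs of the 12 windows, with 1, and 41.3% GC.

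GSTP1 was the most abundant transferase transcript in these cells by a wide margin. It had 4611, 4937 and 3432 counts in replicates 1, 2 and 3, which is 431, 432 and 388 CPM. The mean was 417 ± 25.4 CPM (SD, n = 3). Genes differ in length, so levels of different genes were compared as CPM per kb of the longest annotated transcript. On this scale GSTP1 (ENSG00000084207.18) reached 248 ± 15.1 CPM per kb, higher than 99.0% of the 13863 detected genes with a length. It held 60.2 ± 1.96% of the summed per-length level of the 10 members. In cultured cells of 1 line, a lower level could come from fewer cells that express the gene or from less RNA in each, and these cannot be told apart.

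**Figure D1:**
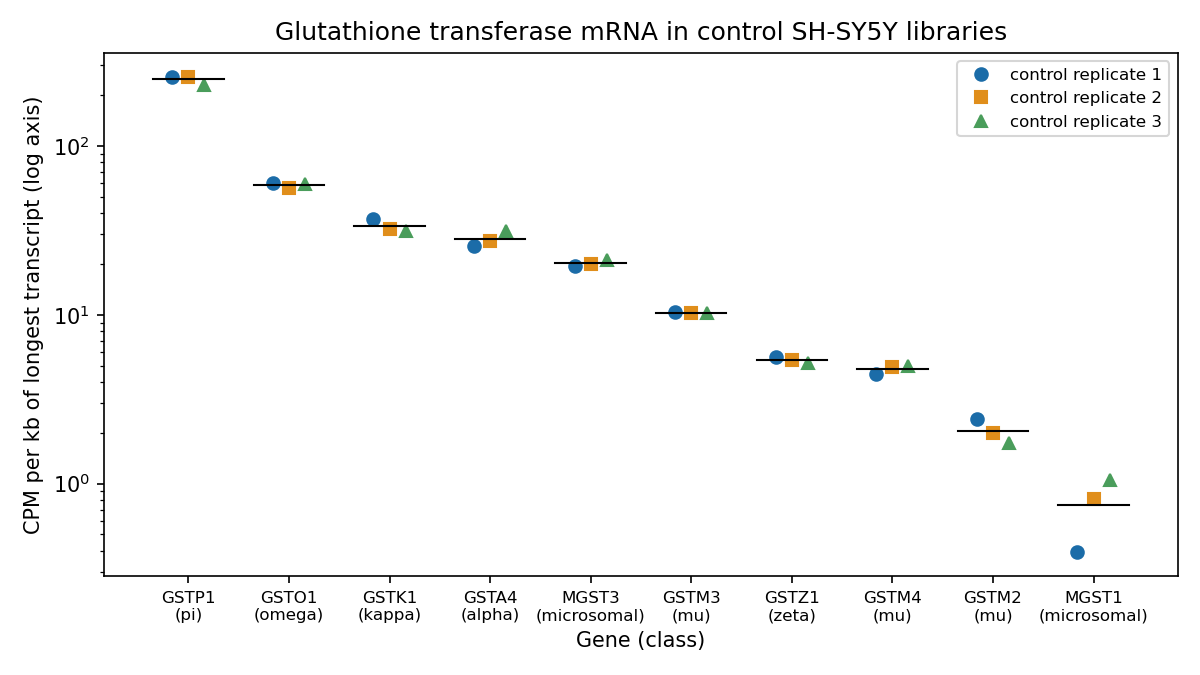
Level of each member as CPM per kb of the longest transcript, on a log axis, in the 3 control libraries (symbols) with their mean (line). GSTP1 lies at 231 to 257 CPM per kb, above every other member in every library, and MGST1 lies at 0.391 to 1.05.

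GSTO1 (ENSG00000148834.13), an omega class enzyme that reduces dehydroascorbate and protein mixed disulfides more than it conjugates electrophiles, came next per kb of the longest transcript. Its levels were 63.4, 59.2 and 63.0 CPM, or 58.8 ± 2.18 CPM per kb. Its 3 values lay below all 3 of GSTP1, whose mean per kb was 4.22 times as high, and above all 3 of the next gene. The ratio of GSTP1 to GSTO1 was larger with other lengths, at 8.14 with the median transcript, 7.37 with the longest protein-coding transcript and 5.96 with the union of exons. GSTK1 (ENSG00000197448.14), the mitochondrial and peroxisomal kappa enzyme, had 99.5, 86.9 and 84.1 CPM, which is 33.5 ± 3.04 CPM per kb. Replicate 1 was its highest library. In plain CPM, GSTK1 was above GSTO1. Per kb of the longest transcript GSTK1 was below GSTO1, because the 2692 bases used for GSTK1 exceed the 1052 used for GSTO1. The union of exons gave the same order. GSTK1 was above GSTO1 with the median transcript, at 102 against 70.8 CPM per kb. It was also above with the longest protein-coding transcript, at 76.1 against 58.8.

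GSTA4 (ENSG00000170899.11), the alpha class enzyme that prefers 4-hydroxynonenal, a product of lipid peroxidation, had 43.5, 46.5 and 53.5 CPM. Its level per kb was 28.2 ± 3.04. This range overlapped that of GSTK1, and GSTK1 was the higher in 2 of 3 libraries, so these neighbours did not differ beyond their spread. GSTA4 was the one alpha class gene with assigned counts: GSTA1, GSTA2, GSTA3 and GSTA5 each had 0 counts in all 3 libraries. For counts assigned to these 4 genes this allows up to 0.263 to 0.338 CPM, by library.

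The membrane-bound enzymes differed from each other by more than the spread of either. MGST3 (ENSG00000143198.13), which has glutathione peroxidase and leukotriene C4 synthase activity, had 642, 705 and 583 counts, or 19.4, 19.9 and 21.2 CPM per kb (mean 20.2 ± 0.964). MGST1 (ENSG00000008394.13), an enzyme of the endoplasmic reticulum and outer mitochondrial membrane, rested on 9, 20 and 20 counts. These counts correspond to 0.842, 1.75 and 2.26 CPM, and to 0.751 ± 0.334 CPM per kb. MGST1 was the single member under 10 counts in a library. Its counting error was 22.4 to 33.3% per library and its coefficient of variation between libraries 44.4%. It ranked last of the 10 under every definition of length tried.

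GSTM3 (ENSG00000134202.11), the mu class gene known for its expression in brain and testis, was the highest of the 3 mu members. It had 41.9, 41.5 and 41.7 CPM, or 10.3 ± 0.0511 CPM per kb. Its 3 libraries differed by less than counting noise alone would give, with a chi-square statistic per degree of freedom of 0.0113 where sampling gives a value near 1. The statistic was highest for GSTP1, the most deeply counted, at 14.7, followed by GSTK1 at 7.59 and GSTA4 at 5.34. It was also above 1 for MGST1, GSTM2 and MGST3. The share of all genes above 1 was not computed, so these values do not set the members apart. GSTM4 (ENSG00000168765.17) had 17.8, 19.5 and 19.9 CPM and 4.77 ± 0.283 CPM per kb. GSTM2 (ENSG00000213366.13), which is known to conjugate the o-quinones of dopamine, had 10.5, 8.66 and 7.57 CPM and 2.06 ± 0.340 CPM per kb. The 3 mu members together held 4.16 ± 0.106% of the per-length sum. This share depended on the length used more than on the library, and was 7.61% with the median transcript and 2.88% with the longest protein-coding transcript.

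GSTZ1 (ENSG00000100577.19), the zeta enzyme, is also maleylacetoacetate isomerase of tyrosine breakdown, a pathway whose last step releases fumarate. It had 30.3, 28.8 and 27.7 CPM, or 5.40 ± 0.246 CPM per kb. All 3 of its values per kb were above those of GSTM4, by a ratio of means of 1.13. With the union of exons as length the neighbours overlapped and GSTZ1 was higher in 1 of 3 libraries. GSTZ1 shares exon sequence on the opposite strand with POMT2, which had 607 to 898 counts. Whether the counting used strand is not stated, so a part of the GSTZ1 reads could belong to POMT2.

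Of the 10 members, 9 were detected. The same was true of 22.9% of all genes in the table and of 62.2% of the protein-coding genes of GENCODE release 29. Since the members were chosen with earlier results of these data known, the difference is not a result about an independent list. The median over all 10 members, with MGST1 included though not detected, was 15.2 CPM per kb. For all detected genes, a set without such genes, it was 8.37.

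The order of the members depended in part on the length used. The longest annotated transcript of a gene is often a rare form that retains introns. Lengths of 4 kinds were therefore compared: the longest transcript, the median transcript, the longest protein-coding transcript and the union of exons. GSTP1 was first and MGST1 last under all 4. GSTP1 held 58.2 ± 1.77% of the sum with the median transcript, 61.8 ± 1.73% with the longest protein-coding transcript and 67.7 ± 1.82% with the union of exons. MGST3 moved most, from rank 3 with the median transcript to rank 6 with the union of exons. GSTO1 and GSTK1 ranked 2 to 4, GSTA4 ranked 3 to 5, GSTM3 5 to 7, GSTZ1 6 or 7, and GSTM2 and GSTM4 8 or 9. With the longest protein-coding transcript the ranges of GSTM2 and GSTM4 overlapped, with GSTM2 at 5.14 and GSTM4 at 4.77 CPM per kb. GSTM2 stayed below GSTM4 in every library with the other 3 lengths.

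**Figure D2:**
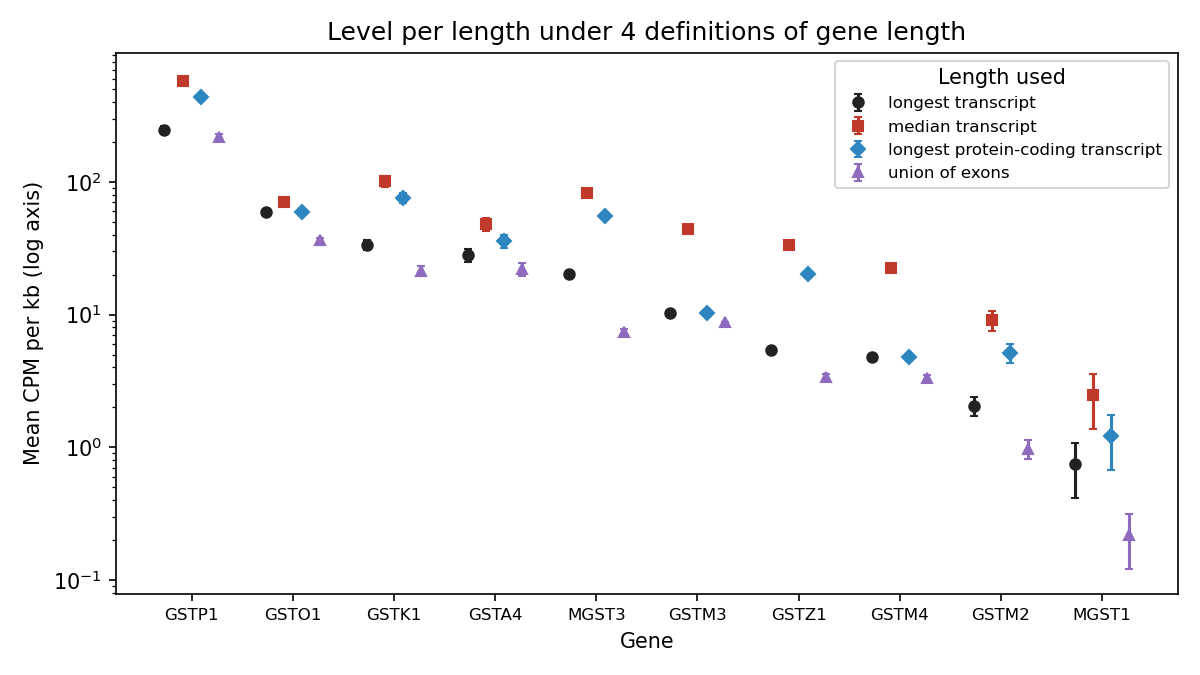
Mean level of each member in CPM per kb, on a log axis, under 4 definitions of gene length (symbols), with the SD over 3 control libraries as bars. The first and last positions are the same under all 4, and the positions between them shift, most for MGST3, which goes from 82.6 CPM per kb with the median transcript to 7.44 with the union of exons.

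The mu genes lie side by side on chromosome 1 and are close copies, which bears on how their counts can be read. In GRCh38, GENCODE release 29 places GSTM4 at chr1:109656081-109674836 and GSTM2 at chr1:109668022-109709551, both on the plus strand and with exons that overlap. The GSTM2 model also overlaps exons of GSTM1 on the same strand. GSTM3 lies at chr1:109733932-109741038 on the minus strand. The coding sequences of GSTM2 and GSTM4 were identical at 591 of 657 bases, while those of GSTM2 and GSTM3 were 72.1% identical. The same 75-base stretch near the start of each coding sequence, from GENCODE release 29, shows this. It covers coding bases 7 to 81 in GSTM2, GSTM4, GSTM1 and GSTM5 and 19 to 93 in GSTM3. Capitals mark bases that differ from GSTM2.
GSTM2: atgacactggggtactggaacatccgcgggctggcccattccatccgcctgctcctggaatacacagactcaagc
GSTM4: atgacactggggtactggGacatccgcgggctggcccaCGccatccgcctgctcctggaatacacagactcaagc
GSTM1: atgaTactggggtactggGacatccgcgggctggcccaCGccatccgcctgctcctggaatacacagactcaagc
GSTM5: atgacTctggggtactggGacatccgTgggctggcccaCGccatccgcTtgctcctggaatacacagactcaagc
GSTM3: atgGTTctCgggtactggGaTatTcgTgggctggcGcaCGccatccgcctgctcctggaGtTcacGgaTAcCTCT

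In this stretch GSTM4 had 3 differences from GSTM2, GSTM1 had 4, GSTM5 had 6 and GSTM3 had 20. Over all protein-coding transcripts of GSTM2, 37.9% of its 50-base stretches were found base for base in a transcript of another gene, and 30.9% of its 100-base stretches. For GSTM4 these shares were 16.9% and 7.77%. Among the mu genes, 20.1% of the 100-base stretches of GSTM2 were shared because gene models overlap on the same genome bases, and 10.8% matched another place. GSTM3 shared 1.39% of its 50-base stretches and none of its 100-base stretches. GSTP1, GSTA4, GSTZ1, GSTK1 and MGST1 shared none at any length tried. The counts of GSTM2 and GSTM4 are therefore uncertain, since neither the read length nor the treatment of reads that fit several genes is stated. Of the 100-base stretches of GSTM2, 23.3% occur in GSTM1 and 8.43% in GSTM4. The genes GSTM1 and GSTM5 had 1 count and 0 counts over the 3 libraries, so few reads were assigned to these copies. Reads in stretches common to GSTM1 and GSTM2 may have been left uncounted.

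**Figure D3:**
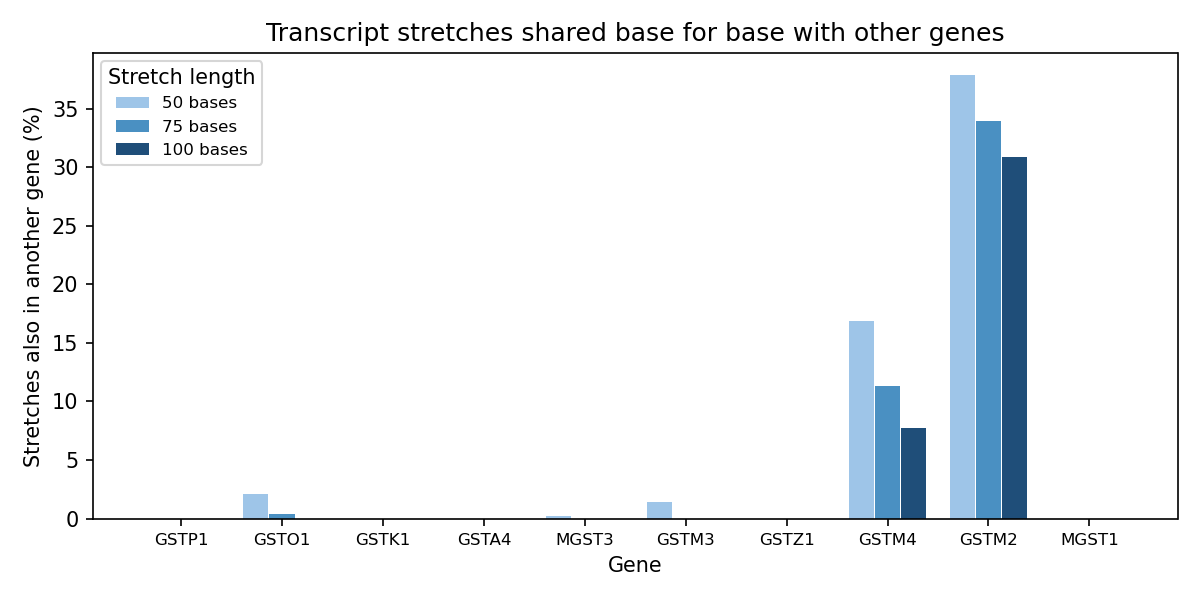
Share of each member's 50-, 75- and 100-base transcript stretches that occur base for base in transcripts of another gene (bars, from 0). GSTM2 and GSTM4 stand apart, with 30.9% and 7.77% at 100 bases, where every other member is at 0.

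Variation between libraries ranged widely among the members. The median coefficient of variation of the 9 detected members was 5.92%, beside 8.69% for all detected genes. It was above that median for GSTM2 at 16.5%, GSTA4 at 10.8% and GSTK1 at 9.08%. Per gene, edgeR also estimates a biological coefficient of variation, with counting noise set apart. Its median was 7.38% over the 9 members and 8.06% over all detected genes. Each estimate is drawn towards values shared by all genes (common value 7.82%), so these medians say little about single genes. GSTM3, with a coefficient of variation of 0.496%, was still given 7.37%. Of the 9 detected members, 1 had a highest library at least 25% above its lowest, GSTM2 with a ratio of 1.38. The same was true of 33.6% of all 13920 detected genes. This share and the plain coefficient of variation include counting noise, which is larger at low counts. No genes matched for depth were compared, so the members are not shown to be steadier than others. MGST1 had a ratio of 2.68 and lay outside the 9. GSTA4 was closest below the limit with 1.23. GSTM2 was past this limit in 1 of the 3 pairs of libraries: its ratio was 1.15 without replicate 1 and 1.21 without replicate 3, and none of the 9 passed in either case.

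A trend with GC content was fitted to each control library, and the spread of some members moved with it. GSTP1, with 62.5% GC in its longest transcript, was lowest in replicate 3, and GSTA4, with 38.3% GC, was highest there. GSTM2 and GSTM4 went the other way. GSTM2, with 43.4% GC, was lowest in replicate 3, and GSTM4, with 53.4% GC, was highest there. Replicate 3 also had the highest share of mitochondrial counts, 6.25% against 4.11% and 3.83%, and the part of that difference in these levels was not tested. When the trend of each library with GC was removed, GSTP1 became 402, 420 and 426 CPM and GSTA4 became 47.0, 46.9 and 49.2 CPM. The SD of GSTP1 went from 25.4 to 12.7 CPM and that of GSTA4 from 5.16 to 1.34 CPM. The SD was higher after removal for GSTM2, GSTM3 and GSTM4 and lower for the other members. The trend was fitted to these same libraries, so a lower spread is built in for many genes. The share of all genes with a lower SD was not computed. The higher level of GSTK1 in replicate 1 persisted, at 99.2 CPM against 86.5 and 85.0. GSTM2 had 10.7, 8.67 and 7.30 CPM after removal, and its ratio of highest to lowest became 1.47. After removal, 1 of the 9 members, again GSTM2, and 23.7% of detected genes with a GC value had a highest library at least 25% above the lowest.

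**Figure D4:**
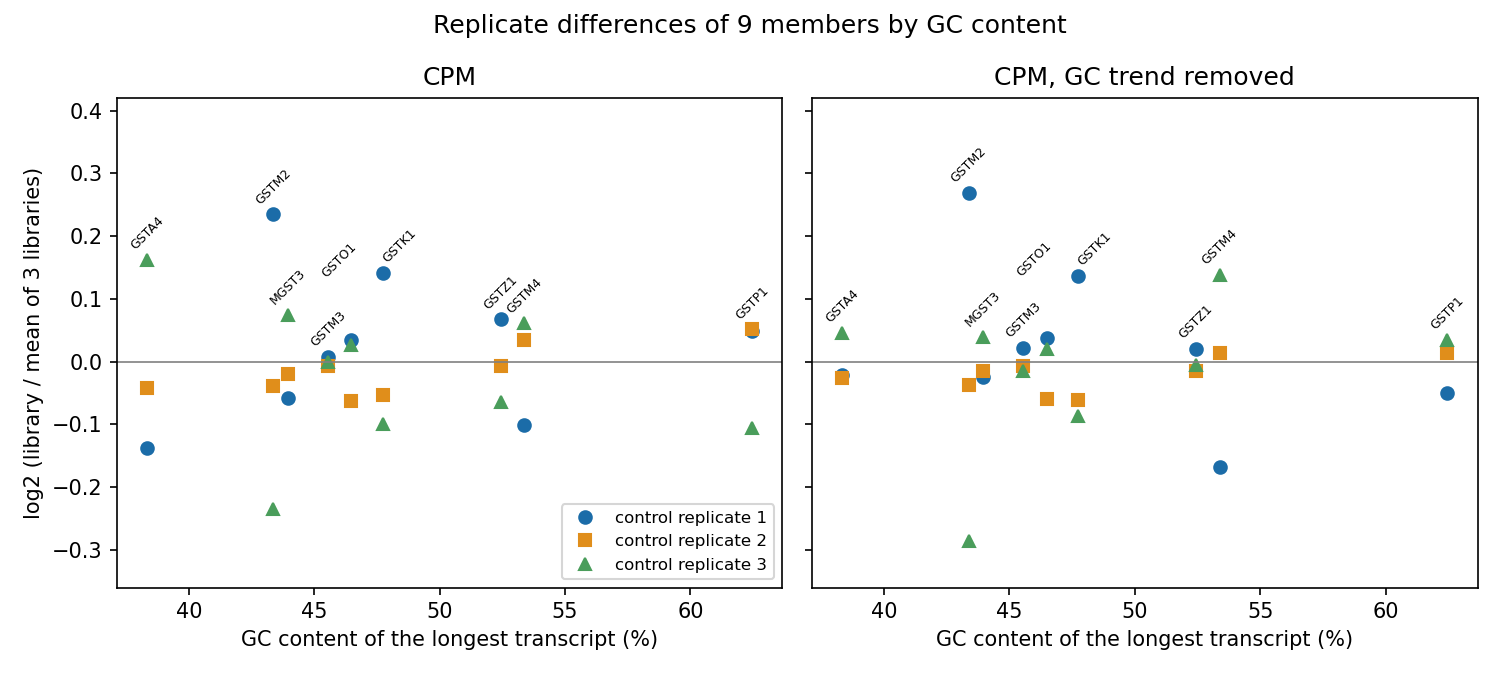
Difference of each control library from the mean of the 3 (log2) for the 9 detected members, against the GC content of the longest transcript, before (left) and after (right) the GC trend was removed. The points of GSTP1, GSTA4 and MGST3 draw together on the right, while those of GSTM2, GSTM4 and GSTK1 stay spread.

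Few or no counts were assigned to most other transferase genes. Of 17 further genes of the family and its close relatives, 16 were measured and GSTT1 was not analysed here. Detected were 4 of them, against 62.2% of protein-coding genes: PTGES, a prostaglandin E synthase of the same membrane family, with 12.4 ± 2.28 CPM, GSTCD with 26.2 ± 2.00 CPM, MGST2 with 9.97 ± 0.976 CPM and GSTT2B with 2.91 ± 0.244 CPM. GSTT2B has a nearly identical copy, GSTT2, with 78.6% of its 100-base stretches found in another gene, so how reads divide between them is uncertain. The list held 7 genes with 0 counts in every library: GSTA1, GSTA2, GSTA3, GSTA5, GSTM5, GSTT4 and HPGDS, the hematopoietic prostaglandin D synthase. A low count is not proof of absence where copies exist: 28.3% of the 100-base stretches of GSTM1, 12.0% of those of GSTA1, 9.06% of those of GSTA2, 6.58% of those of GSTT4 and 1.04% of those of GSTM5 occur in another gene, and reads from them may have been left uncounted. GSTA3, GSTA5 and HPGDS shared none at this length. GSTO2, which lies beside GSTO1 on chromosome 10, had 15, 12 and 7 counts. The 10 members summed to 779 ± 23.7 CPM and the 16 further genes to 54.1 ± 0.880 CPM. Both lists were chosen with earlier results of these data known, so these sums do not compare independent lists.

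Conjugates made by these enzymes leave the cell through ABC transporters and are trimmed to mercapturates by gamma-glutamyl transferases, peptidases and an acetyltransferase. Of 19 genes on this route, 9 were detected, against 62.2% of protein-coding genes. The highest per kb were LAP3, a cytosolic aminopeptidase, with 30.3 ± 0.452, ABCC5, an export pump, with 25.5 ± 0.904, and GGT7, of the gamma-glutamyl transferase family, with 19.5 ± 2.23 CPM per kb. ABCC1, the best known glutathione conjugate pump, had 14.1 ± 0.716 CPM per kb. The lowest were GGT6, DPEP2, DPEP3 and ACY3, which tie at 0 counts in every library. GGT1, the main gamma-glutamyl transferase, had 1, 0 and 1 counts, and NAT8, the acetyltransferase that makes mercapturates, had 2, 2 and 5. Stretches shared with other genes were not computed for this list. Reads that fit several genes may have been left uncounted, so low counts here are not proof of absence. All ABC exporters on the list, ABCC1 to ABCC5, were detected, with ABCC2 lowest at 0.370 CPM per kb. The 5 genes that supply glutathione ranged from 1.01 CPM per kb for SLC7A11, the cystine carrier, to 52.8 for GSR, glutathione reductase, all below GSTP1.

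**Figure D5:**
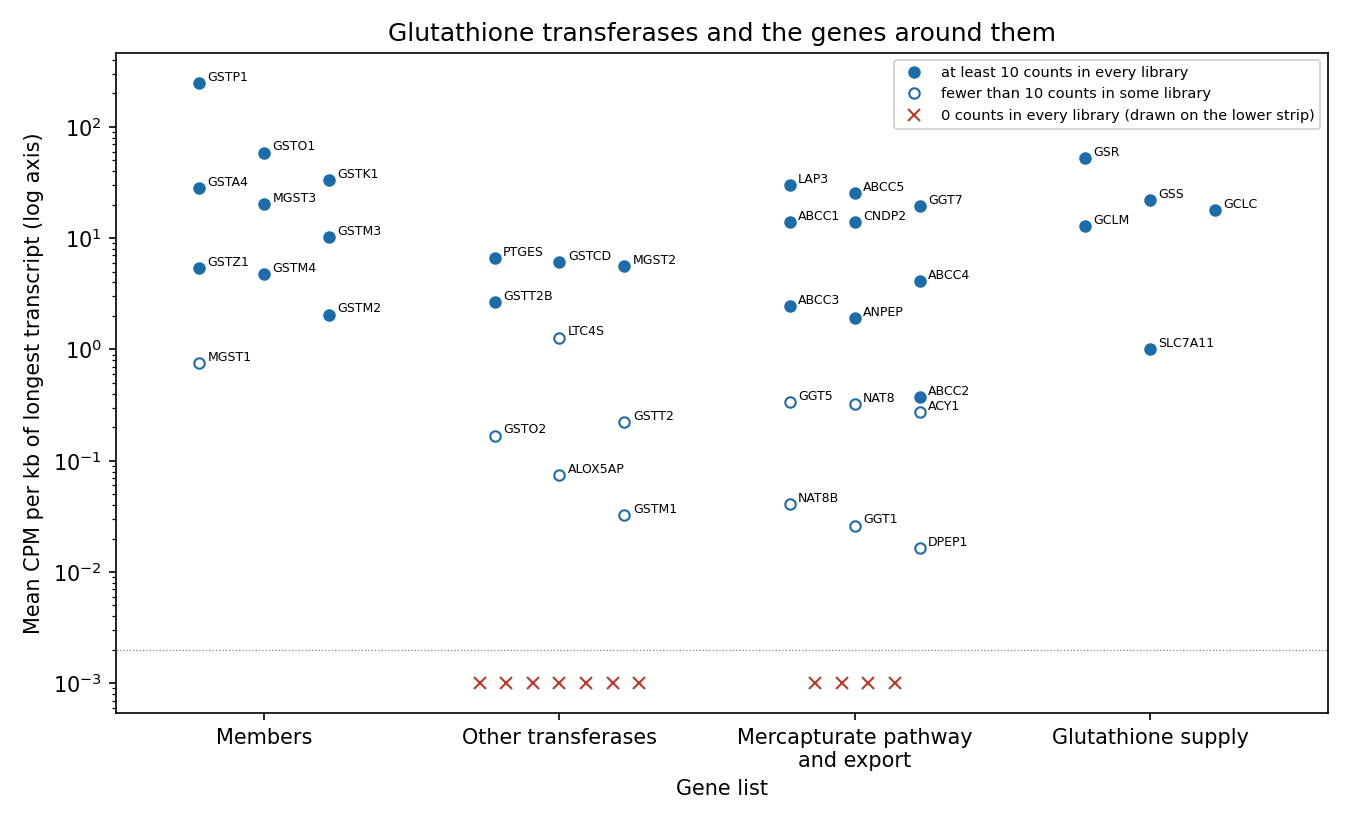
Mean level in CPM per kb of the longest transcript, on a log axis, of the members and of 3 further gene lists in the control libraries. Filled circles are detected genes, open circles had under 10 counts in some library, and crosses on the strip under the dotted line mark genes with 0 counts in every library, 7 among the other transferases and 4 on the mercapturate route.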

How the data were processed

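A stranded kit turned the cells' messenger RNA into libraries, per the labels' protocols. The authors deposited raw counts per Ensembl gene, without normalization. The submitters' processing notes name fastp 0.21.1, STAR 2.7.7a, featureCounts and GRCh38. The annotation release, strand setting, read length and treatment of multi-mapping reads are not given in the sources used here. Of 6 value columns, 3 matched no labelled sample and were not used. One entry, ANK2, is broken over several lines and has no value in the columns used.

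Counts were scaled to CPM with TMM factors (edgeR 4.0.16, R 4.3.3). Lengths and GC came from GENCODE release 29. The GC trend was the median deviation in 50 bins, over detected genes (10 counts or more in each library) whose mean count reached 100. The calculations were tested on simulated data. The members, the lists and the rule to name all 10 members were chosen with earlier results of these data known. The edgeR test of peptide against control was planned and not run, since 1 group had matching columns. GSTT1 had no matching symbol. A gene listed in the plan for the mercapturate route is not reported here. On that list the rule named the 3 highest and 3 lowest per kb. The genes of lower rank named there, ABCC1, ABCC2, GGT1 and NAT8, were chosen after their values were seen. Python 3.11.15 was used for tables and figures.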

Additional observations from a re-analysis of the deposited data

How the results depend on the processing

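RLE size factors, the library total alone and removal of the GC trend moved no member's mean by as much as 1 SD between libraries. These settings mainly shift levels between the libraries and leave the mean over the 3 nearly in place by construction. That result therefore says little about how stable single levels are. Leaving mitochondrial genes out of the total raised every member by 4.97% by its construction, which passed 1 SD for 4 of 10 members and brought the summed level of the 10 members from 779 to 818 CPM. The share of GSTP1, 60.2% of the per-length sum, was 58.2% with the median transcript and 67.7% with the union of exons, and ranged from 59.4% to 61.3% when 1 library was left out. The summed level then ranged from 770 to 793 CPM. The longest protein-coding transcript and the union of exons were added after the data were seen. The number of detected members, 9, was 10 at a minimum of 1 count and 9 at a minimum of 50, and 9 to 10 with 1 library left out. The number with a highest library at least 25% above the lowest, 1 of 9, was 0 to 1 with 1 library left out. It was 0 without replicate 3, and without replicate 1 the 1 member past it was MGST1, then detected, with a ratio of 1.29, while none of the 9 passed. Protein length was not tried. No paired analysis was possible because columns matched the control samples only. Leaving out 1 of 3 libraries cannot move a mean by 1 SD, so it says nothing about the stability of single levels. Depth limits MGST1 most, with 9 to 20 counts.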
